A study of Bos indicus with 6 samples.

Results

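Marker genes of the leukocytes that live in the wall of the oviduct were described in the isthmus of cows. The set had 33 gene symbols, and a gene was taken where its symbol in the deposited table was the same. Of these, 32 symbols were found, on 34 of the 24616 rows, because GZMA and GZMB each stand on 2 rows and MRC1 had no row of that name. The set holds 10 T cell genes, 3 B cell genes, 4 genes of cytotoxic cells, 10 genes of macrophages and other myeloid cells, 3 mast cell genes and 3 genes common to leukocytes.

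The libraries came from 6 healthy, non-lactating multiparous Nelore (Bos indicus) cows, with 1 RNA-seq library of full-thickness isthmus per cow, taken on day 4 after ovulation was induced with a GnRH agonist. The study asked how the size of the ovulatory follicle, and the hormones that go with it, relate to the transcriptome of the oviduct. In both groups the cows had been presynchronized with a prostaglandin F analog and a GnRH agonist, had received an intravaginal progesterone device with estradiol benzoate, and were given prostaglandin at device removal and once more afterwards. In the LF/LCL group (large follicle, large corpus luteum; cows 617, 79 and 527) prostaglandin was also given at device insertion, and 42 h passed between device removal and GnRH. In the SF/SCL group (small follicle, small corpus luteum; cows 856, 489215 and 97) that injection was omitted and 30 h passed. The sequenced cows were the top-ranked LF/LCL and the bottom-ranked SF/SCL animals by follicle diameter, estradiol, luteal area and progesterone, so they are not a random draw from the treated cows.

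The isthmus is the narrow, muscular segment of the oviduct next to the uterus, where sperm are stored and through which the embryo passes. T cells carry the CD3 chains beside their antigen receptor and, by subset, the coreceptors CD4 or CD8, and T cells that lie within the epithelium are commonly CD8-positive. B cells carry CD79A and CD79B beside their surface antibody, macrophages depend on signals through CSF1R, and mast cells store proteases and histamine in granules that are released when IgE receptors are crosslinked.

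Values are normalized read counts, the reads counted per gene divided by the size factor of the library, and they are always given for cows 617, 79 and 527 and then for cows 856, 489215 and 97. Values of different genes cannot be ranked against each other, because transcript length is not divided out. The libraries held from 23899117 to 34193164 counted reads, and the size factors ran from 0.751 to 1.32. The limit of 3 reads that a count of 0 still allows covers counting error only, whereas the intervals of group differences rest on the spread between cows. Group differences are log2 fold changes of (value + 1), SF/SCL over LF/LCL, from limma, and those below 0 mean more reads in LF/LCL. The 95% interval follows where it is given.

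Cow 489215 of the SF/SCL group stood apart from the other 5 cows. The summed normalized counts of 10 smooth muscle genes were 940434, 874513 and 825769 in LF/LCL, and 386212, 1283250 and 446718 in SF/SCL, so that cow 489215 had the highest sum and the other SF/SCL cows the lowest. For 15 ciliated cell genes the sums were 46850, 44102 and 37690 against 66270, 34614 and 72268, and here cow 489215 was the lowest. The fibroblast sums were 411588, 524610 and 497690 against 206053, 307763 and 216141. For secretory and general epithelial genes they were 56657, 43601 and 38779 against 335595, 90196 and 395554. The secretory gene OVGP1 alone gave 271794 and 325158 of the sums 335595 and 395554, but only 729.6 of the 90196 of cow 489215. The height of those sums therefore rests mostly on 1 gene and cannot be read as the level of the whole list. In the fibroblast list and in the epithelial list cow 489215 lay on the side of the other SF/SCL cows. Muscle and ciliated cell markers were present in every library, as the tissue label requires. With all 6 cows, groups did not overlap for 4 of 10 smooth muscle, 6 of 10 fibroblast and 1 of 11 endothelial genes, higher in LF/LCL (8.6% of all genes). The same held for 2 of 13 ciliated and 7 of 14 secretory and general epithelial genes, higher in SF/SCL (9.51% of all genes). With cow 489215 left out, 8 of 10 smooth muscle, 9 of 10 fibroblast and 4 of 11 endothelial genes were called higher in LF/LCL, against 7.92% of all genes. Then 11 of 13 ciliated and 7 of 14 secretory and general epithelial genes were called higher in SF/SCL, against 10.3% of all genes. Group differences of the tested immune genes are therefore given with and without this cow. In bulk tissue, fewer cells of a type and less RNA per cell cannot be told apart, and the part of tissue makeup in the results below was not tested.

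No immune gene passed the test between the groups with all 6 cows, and many values varied several-fold between cows of the same group. After a filter that kept genes whose mean exceeded both 5 and the SD, 30 of the 34 rows were tested. CD79B, MS4A1 and 1 GZMB row had a mean at or under 5, and KIT, the receptor for stem cell factor, had an SD above its mean. At a Benjamini-Hochberg adjusted p-value under 0.05 limma called 0 of the 30, and over all 15387 genes tested it also called 0 (0%). Before adjustment 1 of the 30 had a p-value under 0.05 (3.33%), which was FCER1A, higher in LF/LCL, against 8.66% of all genes (4.19% higher in SF/SCL and 4.48% higher in LF/LCL). On the reads recovered from the table, edgeR's quasi-likelihood test called 0 members and 0% of all genes, and DESeq2 called 0 members and 2.7% of all genes. The values of the groups did not overlap for 4 members (13.3%), CD2 being higher in SF/SCL and CD5, CORO1A and FCER1A higher in LF/LCL, against 18.1% of all genes (9.51% higher in SF/SCL and 8.6% higher in LF/LCL). Of the 30 log2 fold changes 8 were positive and 22 negative, with a median of -0.26, where the median of all genes was -0.02.

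Without cow 489215, 31 rows were tested and 1 was called (3.23%), which was KIT, higher in SF/SCL, against 18.2% of all genes (10.3% higher in SF/SCL and 7.92% higher in LF/LCL). Before adjustment 6 members then had a p-value under 0.05 (19.4%), against 33.9% of all genes. The groups did not overlap for 9 members, against 52% of all genes. There were 14 positive and 17 negative log2 fold changes with a median of -0.03, against 0.00 over all genes. These shares of the immune genes were below those over all genes.

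**Figure D1:**
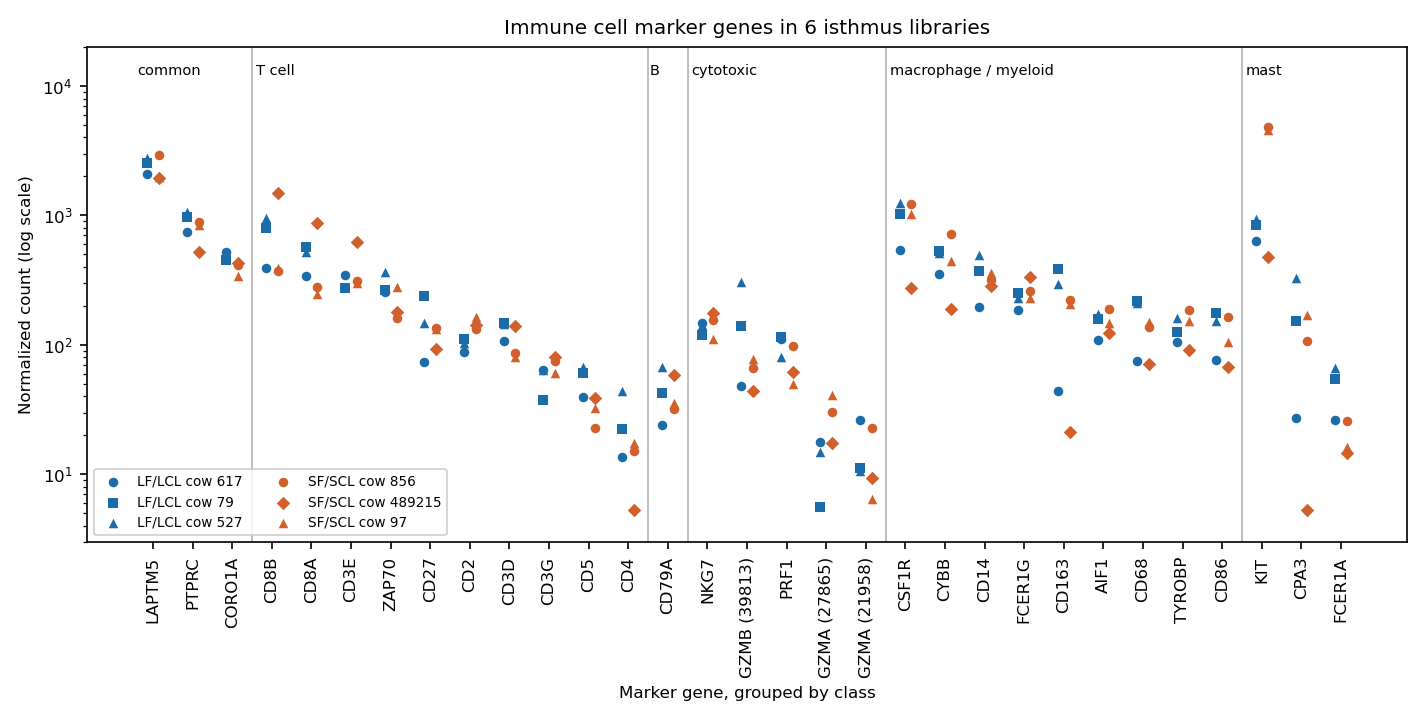
Normalized count (log axis) of each immune marker with a mean above 5 in each of the 6 isthmus libraries, grouped by cell class. Each point is 1 cow, blue for LF/LCL and orange for SF/SCL, and the diamond is SF/SCL cow 489215. The colors mix for most genes, and KIT stands out with cows 856 and 97 at 4827.1 and 4562.7 against 480.6 to 936.3 in the other cows.

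The genes common to leukocytes had the narrowest range of the 6 class sums. Their summed normalized counts, 3349, 3968 and 4341 in LF/LCL and 4243, 2900 and 3178 in SF/SCL, spanned 1.497-fold from the lowest to the highest cow. LAPTM5, a lysosomal membrane protein of hematopoietic cells, had 2079.7, 2533.3 and 2787.8 against 2941.1, 1947.8 and 1990.9. The groups overlapped, and the log2 fold change was -0.12 (-0.67 to 0.43), or -0.02 without cow 489215.

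PTPRC, which encodes the CD45 phosphatase of all leukocytes, had 746.3, 979.0 and 1063.7 in LF/LCL and 887.9, 524.6 and 846.4 in SF/SCL. Its lowest value was that of cow 489215, and the log2 fold change of -0.33 became -0.08 without it. CORO1A, an actin-binding protein of leukocytes, had 523.3, 456.2 and 489.2 against 414.0, 427.4 and 340.3. All 3 LF/LCL values lay above all 3 SF/SCL values, but the log2 fold change of -0.32 (-0.83 to 0.19) did not pass the test, nor did the value of -0.38 without cow 489215 (adjusted p = 0.131, limma).

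The T cell genes did not move as a block, and the CD8 coreceptor and the CD4 coreceptor took opposite extremes in the same cow. CD8A, a chain of the coreceptor of cytotoxic T cells, had 340.2, 573.5 and 519.1 in LF/LCL and 278.0, 877.4 and 246.0 in SF/SCL. CD8B, the other chain, had 392.5, 796.0 and 962.7 against 372.2, 1499.1 and 391.2. For both chains cow 489215 was the highest of the 6 and the other SF/SCL cows the lowest.

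The log2 fold changes with all 6 cows were -0.25 (-1.52 to 1.02) for CD8A and -0.15 (-1.66 to 1.35) for CD8B. Without cow 489215 they were -0.83 (-1.42 to -0.24) and -0.81 (-1.69 to 0.06), with adjusted p-values of 0.0626 and 0.173 from limma. DESeq2 put both past the threshold in those 5 cows (adjusted p = 0.00883 and 0.0422), where it also called 25.4% of all genes. edgeR's quasi-likelihood test called neither there, with adjusted p-values of 0.0573 and 0.133, and 18.1% of all genes. In the same 5 cows the summed smooth muscle counts were also lower in the SF/SCL cows. Within LF/LCL those sums were 940434, 874513 and 825769. Cow 617, with the highest of them, had the lowest LF/LCL values of CD8A and CD8B (340.2 and 392.5). The part of muscle content in the CD8A and CD8B differences was not tested.

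CD3E, a signaling chain of the T cell receptor complex, had 344.4, 276.0 and 277.6 in LF/LCL and 312.9, 621.7 and 300.2 in SF/SCL. Cow 489215 was far above the other 5, and without it the log2 fold change of 0.38 became 0.04 (-0.37 to 0.45). CD3D, another chain, had 106.8, 147.4 and 144.0 against 86.6, 139.8 and 80.2, and CD3G had 63.8, 37.5 and 64.1 against 75.2, 81.2 and 60.7. The 3 chains, which assemble into 1 complex, had log2 fold changes of 0.38, -0.40 and 0.42 with 6 cows, and each interval included 0. Without cow 489215 CD3G had 0.33 (-0.54 to 1.20), and CD3D had -0.65 (-1.26 to -0.04) with groups apart, higher in LF/LCL, and an adjusted p-value of 0.129 from limma.

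CD4, the coreceptor of helper T cells, had 13.6, 22.5 and 43.9 in LF/LCL and 15.2, 5.3 and 17.3 in SF/SCL. The 5.3 of cow 489215 rests on 4 reads, and the log2 fold change of -1.01 (-2.56 to 0.53) became -0.53 without this cow. Set against CD3E within each cow, CD4 had ratios of 0.0395, 0.0816 and 0.158 in LF/LCL and of 0.0485, 0.00856 and 0.0578 in SF/SCL, and CD8A had ratios of 0.988, 2.08 and 1.87 against 0.888, 1.41 and 0.819. Only the change of a ratio from cow to cow can be read, since the transcripts differ in length. The ratio of CD4 to CD3E was lowest in cow 489215, whereas the ratio of CD8A to CD3E was highest in LF/LCL cows 79 and 527.

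CD2, an adhesion receptor of T and NK cells, was 1 of the 4 members with groups apart in all 6 cows (13.3%, against 18.1% of all genes). It had 87.9, 110.8 and 102.8 in LF/LCL and 132.9, 142.5 and 163.6 in SF/SCL. The group means were 100.5 ± 11.6 and 146.3 ± 15.7 (SD, n = 3 each). The log2 fold change of 0.54 (-0.14 to 1.21) did not pass the test (adjusted p = 0.675, limma), and without cow 489215 it was 0.56 (adjusted p = 0.161, limma).

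CD5, a scavenger-receptor family protein that dampens antigen receptor signaling, was apart in the other direction, at 39.8, 61.0 and 67.6 against 22.8, 38.6 and 32.5. The groups were apart by little, since the lowest LF/LCL value (cow 617) stood next to the highest SF/SCL value (cow 489215). Its log2 fold change was -0.82 (-1.79 to 0.15) with an adjusted p-value of 0.648, and -0.98 with an adjusted p-value of 0.131 without cow 489215 (limma). Both genes are pan-T cell markers, and their differences had opposite signs.

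ZAP70, the kinase that binds the activated T cell receptor, had 257.5, 264.7 and 367.1 in LF/LCL and 160.3, 179.7 and 280.7 in SF/SCL, with SF/SCL cow 97 inside the range of LF/LCL (log2 fold change -0.54, -1.31 to 0.22, and -0.46 without cow 489215). CD27, a costimulatory receptor of the TNF receptor family, had 73.3, 236.5 and 146.7 against 136.0, 93.2 and 132.2, and the SF/SCL cows lay within the spread of the LF/LCL cows (log2 fold change -0.20, and -0.03 without cow 489215). In all, 3 of the 10 T cell genes had positive and 7 negative log2 fold changes, with a median of -0.23, or -0.50 without cow 489215. The summed T cell counts were 1720, 2526 and 2696 in LF/LCL and 1592, 3679 and 1705 in SF/SCL. The log2 ratio of the group means of these sums was 0.01 with all cows and -0.49 without cow 489215. CD8A and CD8B made up most of the sum of cow 489215 and a large part of the others, so these ratios lean on the CD8 chains.

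**Figure D2:**
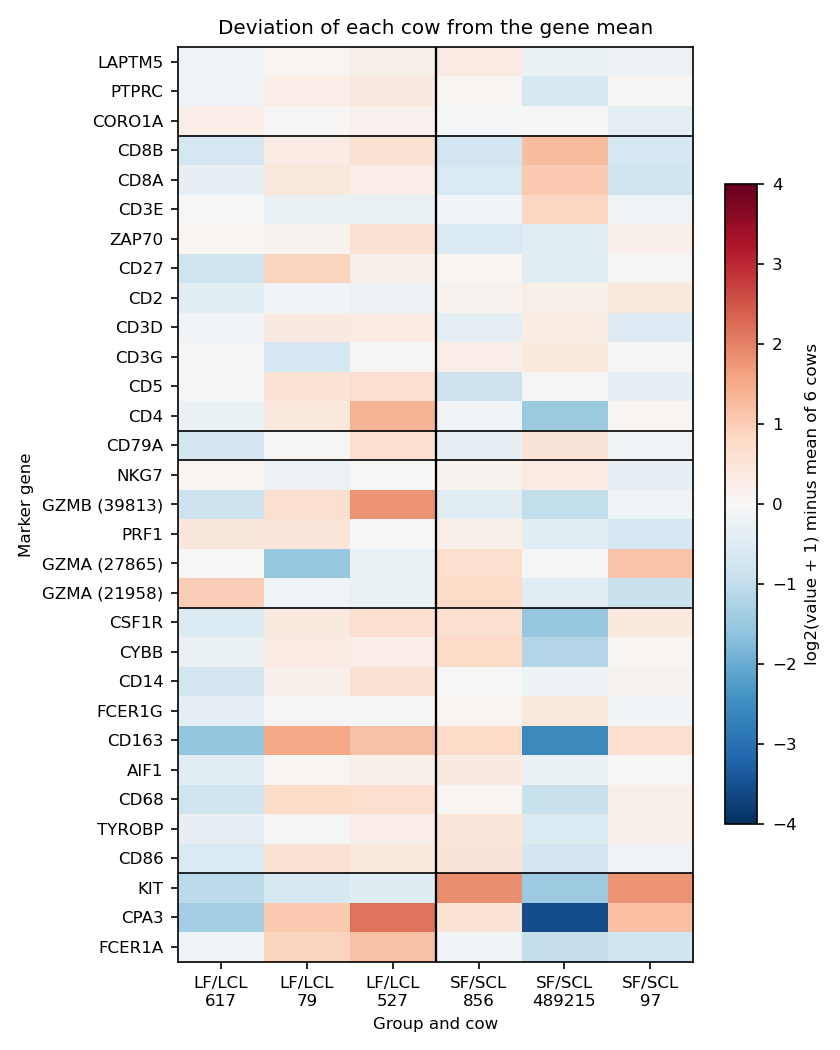
Deviation of log2(value + 1) in each cow from the mean of the 6 cows for each immune marker with a mean above 5, with columns for the cows (LF/LCL left of the vertical line, SF/SCL right of it) and rows grouped by class. Red is above and blue below the gene mean, and the column of cow 489215 is red for CD8A, CD8B and CD3E and blue for CD4, CSF1R, CD163, KIT and CPA3.

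B cell genes were at the edge of detection apart from CD79A. CD79A, a signaling chain of the B cell receptor, had 24.1, 42.2 and 67.6 in LF/LCL and 31.9, 58.6 and 35.8 in SF/SCL, with full overlap of the groups and a log2 fold change of -0.02 (-1.22 to 1.19), or -0.27 without cow 489215. Its partner chain CD79B had 3.1, 1.9 and 5.3 against 3.8, 1.3 and 4.3. MS4A1, which encodes CD20, had 6.3, 1.9 and 9.7 against 3.8, 1.3 and 2.2.

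In cow 489215 the values of CD79B and MS4A1 came from 1 read each, below the 3 reads that a count of 0 still allows, and neither gene was tested, because their means did not exceed 5.

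The genes of cytotoxic cells, which kill through perforin and granzymes, gave no call in either direction. PRF1, which encodes the pore-forming perforin, had 112.0, 114.5 and 80.8 in LF/LCL and 97.2, 61.2 and 49.9 in SF/SCL (log2 fold change -0.59, -1.50 to 0.32, and -0.53 without cow 489215). SF/SCL cow 856 lay within the LF/LCL range. NKG7, a granule membrane protein of NK and cytotoxic T cells, had 148.6, 118.3 and 142.3 against 155.0, 177.1 and 110.5, a log2 fold change of 0.09 (-0.65 to 0.83), or -0.05 without cow 489215.

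GZMB encodes granzyme B, a protease that triggers apoptosis, and its row ENSBTAG00000039813 had 48.1, 138.9 and 305.7 in LF/LCL and 66.1, 43.9 and 78.0 in SF/SCL. The LF/LCL cows were spread more than 6-fold, the group mean of 164.2 ± 130.6 rested on cows 79 and 527, and the interval of the log2 fold change of -1.05 ran from -2.70 to 0.60. Without cow 489215 it was -0.82. The other GZMB row, ENSBTAG00000010057, had 1.0, 0.9 and 0 against 0 in all 3 SF/SCL cows, no more than 1 read in any library, and was not tested.

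The 2 rows of GZMA, which encodes granzyme A, went separate ways. ENSBTAG00000027865 had 17.8, 5.6 and 14.9 in LF/LCL and 30.4, 17.3 and 41.2 in SF/SCL, and ENSBTAG00000021958 had 26.2, 11.3 and 10.54 against 22.8, 9.3 and 6.5. The first had a log2 fold change of 1.203 (-0.20 to 2.61) and the second of -0.35 (-1.86 to 1.15), and without cow 489215 they had 1.53 (adjusted p = 0.117, limma) and -0.23. Rows of a granzyme family share similar sequence, reads that map to more than 1 place were not counted, and so the split between such rows is uncertain. The summed cytotoxic counts were 354, 390 and 554 in LF/LCL and 371, 309 and 286 in SF/SCL.

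The myeloid genes differed more from cow to cow than between the groups. CSF1R, the receptor for the growth factor of macrophages, had 539.0, 1022.2 and 1242.0 in LF/LCL and 1226.7, 272.9 and 1026.3 in SF/SCL. The lowest values of both groups, those of cows 489215 and 617, lay apart from the other 4, which ran from 1022.2 to 1242.0. The log2 fold change was -0.33 (-1.84 to 1.18), and 0.35 (-0.47 to 1.16) without cow 489215.

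CD163, the hemoglobin scavenger receptor of tissue macrophages, had the widest range of the myeloid genes, at 44.0, 383.9 and 296.9 in LF/LCL and 224.1, 21.3 and 207.0 in SF/SCL. Cow 617 and cow 489215, 1 of each group, were again the lowest, and the 21.3 of cow 489215 came from 16 reads. The group means of 241.6 ± 176.6 and 150.8 ± 112.5 (SD, n = 3 each) lay within these spreads, and the log2 fold change of -0.77 (-3.60 to 2.06) became 0.32 (-1.78 to 2.43) without cow 489215. In those 5 cows edgeR and DESeq2 kept it below 0 (-0.17 in both).

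CYBB, a subunit of the phagocyte NADPH oxidase, had 350.6, 527.5 and 513.8 in LF/LCL and 720.8, 189.1 and 447.6 in SF/SCL. CD14, the coreceptor for bacterial lipopolysaccharide, had 194.7, 375.4 and 498.0 against 319.0, 283.6 and 360.9. CD14 was steadier than CD163 in cow 489215, so that the ratio of CD163 to CD14 was 0.226, 1.02 and 0.596 in LF/LCL and 0.702, 0.0751 and 0.574 in SF/SCL. Neither gene differed beyond the spread of the cows, with log2 fold changes of -0.21 (-1.42 to 1.00) for CYBB and -0.05 (-0.97 to 0.87) for CD14. Without cow 489215 limma gave 0.32 and 0.03, and edgeR gave 0.33 and -0.07.

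CD68, a lysosomal glycoprotein of macrophages, had 75.4, 218.7 and 209.9 in LF/LCL and 137.5, 70.6 and 150.6 in SF/SCL. CD86, a costimulatory ligand of antigen-presenting cells, had 76.4, 176.5 and 153.7 against 164.8, 67.9 and 105.1. TYROBP, the DAP12 signaling adaptor, had 105.7, 125.8 and 160.7 against 184.6, 90.5 and 153.9. In these 3 genes, too, cow 489215 was the lowest of all and cow 617 the lowest LF/LCL cow. Their log2 fold changes were -0.41, -0.27 and 0.09, and -0.07, 0.05 and 0.39 without cow 489215.

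AIF1, a calcium-binding protein of macrophages, had 108.9, 157.7 and 173.9 in LF/LCL and 189.9, 123.8 and 146.3 in SF/SCL. FCER1G, the signaling chain shared by Fc receptors of several leukocytes, had 186.3, 252.5 and 229.2 against 262.1, 331.5 and 228.7, and was the only myeloid gene with its highest value in cow 489215. The log2 fold changes were 0.07 for AIF1 and 0.29 for FCER1G, and 0.21 and 0.15 without cow 489215. Of the 9 myeloid genes found, 6 were lowest in cow 489215 and the other 3 in LF/LCL cow 617. With all cows 3 of the 9 log2 fold changes were positive and 6 negative (median -0.21), and without cow 489215 limma gave 8 positive and 1 negative (median 0.21), with none called in either case. In those 5 cows edgeR and DESeq2 gave 5 positive and 4 negative, so the split depended on the tool. The summed myeloid counts were 1681, 3240 and 3478 in LF/LCL and 3430, 1451 and 2826 in SF/SCL, with a log2 ratio of -0.12, or 0.16 without cow 489215.

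**Figure D3:**
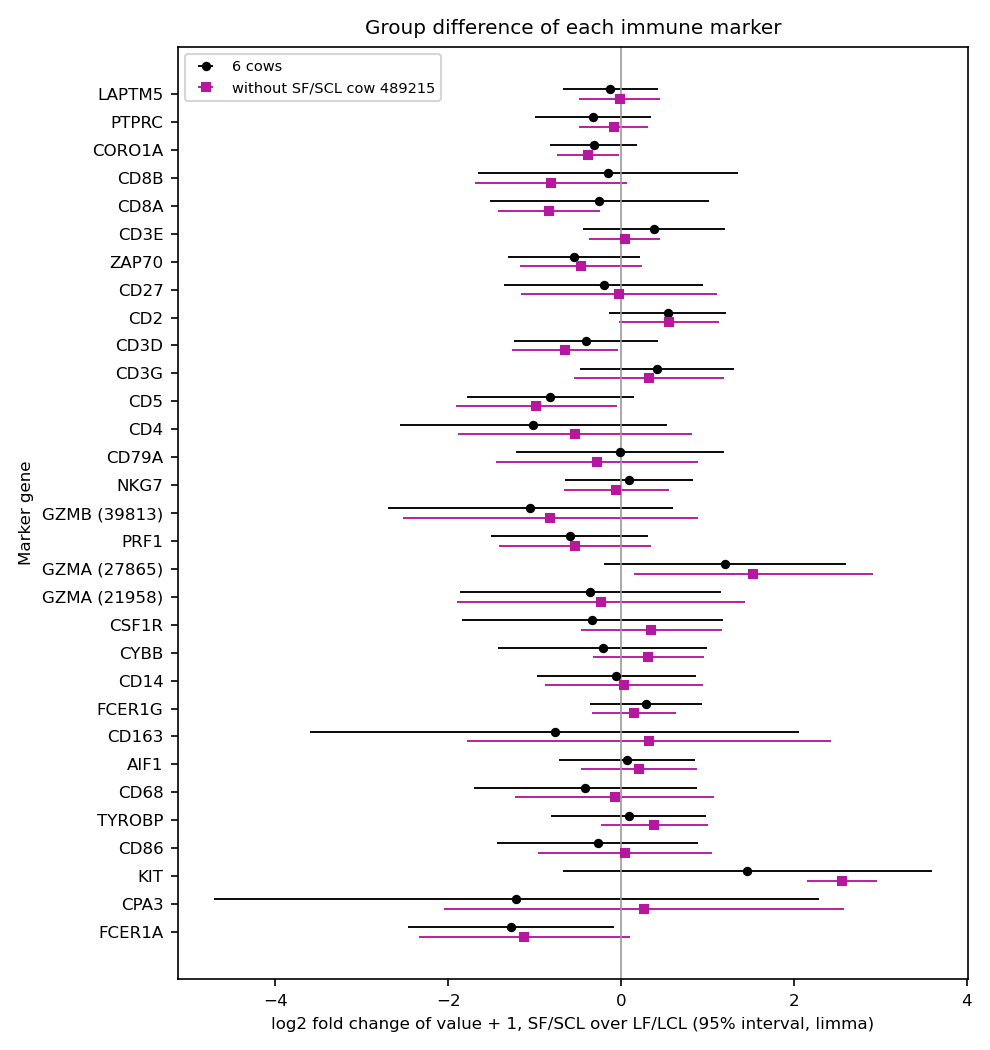
Log2 fold change of (value + 1), SF/SCL over LF/LCL, with its 95% interval from limma for each immune marker with a mean above 5, with all 6 cows (black) and without cow 489215 (purple). KIT with 6 cows comes from the fit without the SD filter. With 6 cows the interval of FCER1A leaves out 0, and without cow 489215 those of CD3D, CD5, CD8A, CORO1A, GZMA ENSBTAG00000027865 and KIT do, of which KIT (2.15 to 2.96) passed the adjusted threshold.

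Of the mast cell genes, KIT was called without cow 489215, and CPA3 and FCER1A were not called in any fit. KIT (ENSBTAG00000002699), a receptor tyrosine kinase on which mast cells depend and which is also known in interstitial cells of Cajal and in some epithelia, had 638.5, 842.9 and 936.3 in LF/LCL and 4827.1, 480.6 and 4562.7 in SF/SCL. SF/SCL cows 856 and 97 were both far above every LF/LCL cow, and cow 489215 was below all of them. The group means were 805.9 ± 152.3 and 3290.1 ± 2436.7 (SD, n = 3 each), and the SF/SCL mean without cow 489215 was 4694.9.

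Because of that spread KIT did not pass the SD filter with 6 cows, and with the mean filter alone its log2 fold change was 1.46 (-0.67 to 3.60) with an adjusted p-value of 0.728 from limma. Without cow 489215 the log2 fold change was 2.56 with a standard error of 0.17 (2.15 to 2.96). KIT then rose in SF/SCL in limma (adjusted p = 0.00188), in edgeR's quasi-likelihood test (adjusted p = 0.00186) and in DESeq2 (adjusted p = 7.81e-38). The call rests on leaving out cow 489215, which was decided with the values known, and on 2 SF/SCL cows.

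CPA3, the carboxypeptidase of mast cell granules, had 27.2, 153.9 and 331.1 in LF/LCL and 107.1, 5.3 and 170.2 in SF/SCL. Its value in cow 489215 came from 4 reads, and its log2 fold change of -1.21 (-4.71 to 2.29) became 0.26 (-2.05 to 2.58) without this cow in limma, and -0.31 in edgeR and in DESeq2. FCER1A, the IgE-binding chain of the high-affinity receptor, had 26.2, 54.4 and 66.8 against 25.8, 14.6 and 16.3. The groups were apart, though by less than 1 normalized count between cows 617 and 856.

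FCER1A had a log2 fold change of -1.27 (-2.46 to -0.08) with an adjusted p-value of 0.540 from limma, and of -1.12 with an adjusted p-value of 0.176 without cow 489215. TPSB1, which encodes the mast cell protease tryptase, is no member of the set and was chosen after its values were seen, and it stands on 2 rows. ENSBTAG00000007325 had 196.8, 312.6 and 701.8 in LF/LCL and 107.9, 46.6 and 220.0 in SF/SCL, and ENSBTAG00000016520 had 219.8, 783.7 and 644.7 against 219.5, 78.5 and 580.9.

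Cow 489215 had the lowest value of all 3 mast cell genes and of both TPSB1 rows. The genes parted at the other end, since KIT was highest in SF/SCL cow 856, while no SF/SCL cow had the highest value of CPA3, FCER1A or either TPSB1 row. Of a wider mast cell list of 12 symbols, 8 were found on 9 rows, TPSB1 among them. The sums over these rows were 3968, 4623 and 5200 in LF/LCL and 1964, 5001 and 3066 in SF/SCL. There cow 489215 was the highest SF/SCL cow and not the lowest. The TPSB1 rows gave little of its sum, which came mostly from other genes of the list. The ratio of KIT to CPA3 was 23.5, 5.48 and 2.83 in LF/LCL and 45.1, 90.3 and 26.8 in SF/SCL, where the 90.3 of cow 489215 rests on 4 reads of CPA3. Epithelial genes, chosen after their values were seen, are given beside KIT. OVGP1, the oviduct-specific glycoprotein of secretory epithelium, had 286.8, 1782.4 and 1949.9 in LF/LCL and 271794, 729.6 and 325158 in SF/SCL. PAX8, a transcription factor of the secretory cells, had 662.5, 503.1 and 539.3 against 1440.9, 468.6 and 1437.1. Both genes were thus high in the same pair of cows as KIT, but the wider epithelial list was not uniform in this. For 7 of its 14 tested genes all SF/SCL values, that of cow 489215 included, lay above all LF/LCL values (9.51% of all genes). For KIT, cow 489215 was the lowest.

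ANO1, the chloride channel that marks interstitial cells of Cajal, had 2541.3, 2202.9 and 3075.9 in LF/LCL and 2866.7, 1258.1 and 4581.1 in SF/SCL, and cow 856 lay within the LF/LCL range. The part of epithelial content in the KIT values was not tested. With KIT the summed mast cell counts were 692, 1051 and 1334 in LF/LCL and 4960, 501 and 4749 in SF/SCL, a log2 ratio of 1.73. Without KIT they were 53.4, 208 and 398 against 133, 19.97 and 186, a log2 ratio of -0.96, so that the direction of this class turned on 1 gene.

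**Figure D4:**
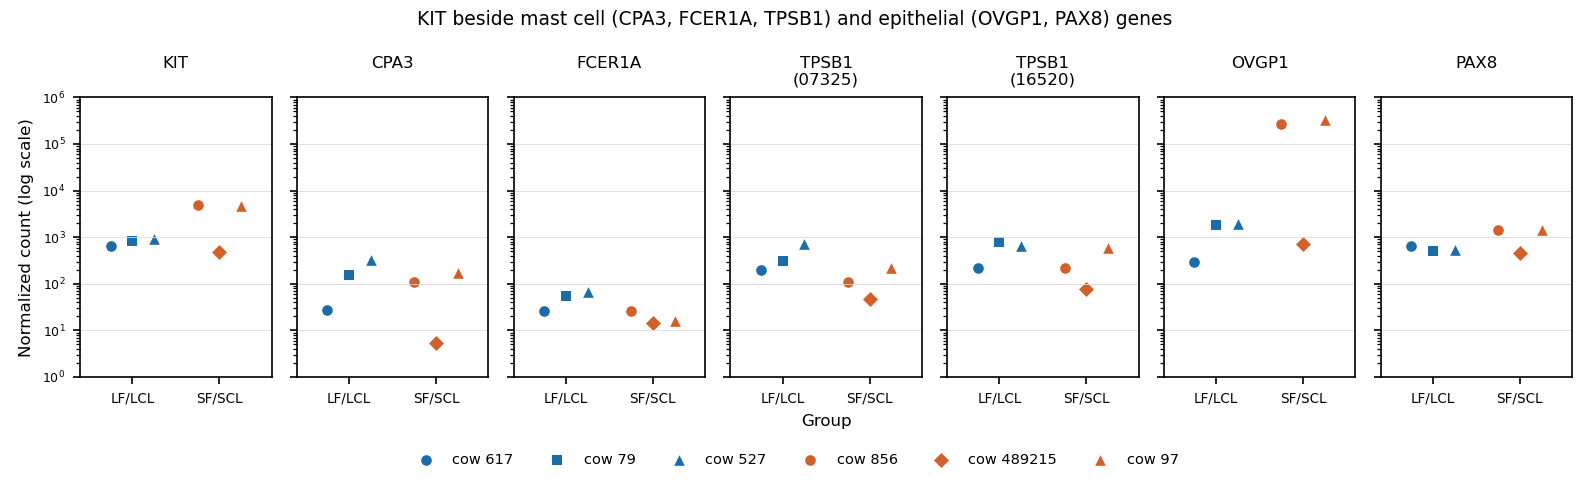
Normalized count (shared log axis) of KIT, of the mast cell genes CPA3, FCER1A and TPSB1 (2 rows) and of the epithelial genes OVGP1 and PAX8 in each cow, blue for LF/LCL and orange for SF/SCL. Cows 856 and 97 lie above all other cows for KIT, OVGP1 and PAX8, and inside or below the LF/LCL range for the mast cell genes.

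Wider lists of 125 further immune symbols, in the same 6 classes, were read from the same fits. Of these, 111 were found on 113 rows, and 98 rows were tested. With all 6 cows limma called 0 of them, 6 had an unadjusted p-value under 0.05 (6.12%, 2 higher in SF/SCL and 4 higher in LF/LCL, against 8.66% of all genes), and 11 had groups that did not overlap (11.2% against 18.1%). Without cow 489215, 102 rows were tested and 7 were called (6.86% against 18.2% of all genes).

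In those 5 cows, 5 of the 7 were higher in LF/LCL. TCF7, a transcription factor of T cells, had 431.2, 347.3 and 453.2 in LF/LCL and 205.1, 660.4 and 280.7 in SF/SCL (log2 fold change without cow 489215 -0.76). BLNK, an adaptor of B cell receptor signaling, had 1259.1, 2263.0 and 3339.4 against 417.0, 3940.8 and 357.6 (-2.45). The pattern over cows, with 489215 the highest and 856 and 97 the lowest, was also that of ARHGDIB (-1.14), of GATA2, a transcription factor of mast cells and of other lineages (-0.98), and of SLC18A2, the vesicular monoamine transporter (-0.80).

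The same order of cows was seen for the summed smooth muscle counts, and the part of tissue makeup in these calls was not tested. Cow 489215 was the highest for GATA2 and SLC18A2 and the lowest for the mast cell gene CPA3. The other 2 genes were called higher in SF/SCL. IKZF1, the lymphoid transcription factor Ikaros, had 44.0, 56.3 and 50.1 in LF/LCL and 200.5, 1.3 and 239.5 in SF/SCL (2.11). PTPN6, the SHP-1 phosphatase of blood cells and epithelia, had 995.4, 957.4 and 943.3 against 1311.0, 1042.5 and 1327.6 (0.45).

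IKZF1 came from 1 read in cow 489215 and was high in the same cows as KIT, while PTPRC was not. By class, the calls without cow 489215 were 1 of 20 T cell rows, 1 of 12 B and plasma cell rows, 0 of 15 cytotoxic and NK cell rows, 0 of 26 macrophage, monocyte and dendritic cell rows, 2 of 8 mast cell rows and 3 of 21 common leukocyte rows. The 26 macrophage, monocyte and dendritic cell rows had a median log2 fold change of -0.32 with all cows and of 0.31 without cow 489215, the same turn of sign as that of the 9 myeloid members.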

How the data were processed

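Polyadenylated RNA of the isthmus was sequenced as paired ends, 1 library per cow. According to the methods and the submitters' processing notes, the authors cleaned the reads (seqyClean), mapped them to a masked Bos taurus UMD 3.1 assembly (TopHat2 2.0.8, Bowtie2 2.1.0, SAMtools 0.1.18) and had HTSeq 0.5.4p2 count unique hits for each Ensembl gene. The deposited signal values are the result of dividing each count by the DESeq 1.12.1 size factor of its library. The use of strand is not given in the sources used here. Division by the size factors returned whole reads (within 0.01 reads) for 100% of 147696 values. The libraries held 23899117 to 34193164 reads, with a median of 27155932.

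Groups came from the sample titles. The SF/SCL and LF/LCL cows were compared with limma 3.58.1 in R 4.3.3 (trend, robust) on log2(value + 1), for genes whose mean exceeded both 5 and the SD, without covariates, since no batch is named. P-values were adjusted over all genes tested (Benjamini-Hochberg, 0.05). The recovered reads were also analysed with edgeR 4.0.16 and DESeq2 1.42.0. Other alternatives were pseudocounts, filters, TMM rescaling and leaving out each cow. Scripts were tested on simulated data. Tables and plots used Python 3.11.15, numpy 2.4.6, pandas 2.3.3 and matplotlib 3.10.9.

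The members and lists were chosen with earlier results of these data known. Values per cow were to be given for members past the threshold, members whose groups did not overlap and the 3 members with the highest mean of each class, and for listed genes past the threshold. The other members, TPSB1, OVGP1, PAX8, ANO1, the ratios, and the genes in the closing section were chosen after their values were seen. Sequences and positions were not used here. Each library is a separate animal, so the p-values measure the spread between animals.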

Additional observations from a re-analysis of the deposited data

How the results depend on the processing

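No paired analysis was possible because the groups share no cow numbers. With 6 cows, the count of 0 members past the adjusted threshold held under the 8 other tests, scalings, pseudocounts and filters tried. Over all genes DESeq2 called 416 in place of 0, and 4 members had an unadjusted p-value under 0.05 in DESeq2 (11.5% of all genes) in place of 1. Leaving out each cow in turn gave 0 to 2827 genes and 0 to 1 members past the threshold, 0 to 6 members at an unadjusted p-value under 0.05 and 4 to 14 members with groups apart. The last count was 14 (45.2%, against 26.6% of all genes) without LF/LCL cow 617, 7 (23.3% against 25.1%) without SF/SCL cow 856, 8 (27.6% against 24.9%) without SF/SCL cow 97 and 9 (29.0% against 52.0%) without cow 489215. DESeq2 size factors were not run for it, since they are the scaling of the deposited values. The counts past the threshold came without cow 489215, where edgeR called 2805 genes and 1 member and DESeq2 3938 genes and 3 members (KIT, CD8A and CD8B), fits chosen after the data were seen.

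The log2 fold change of CD8B turned from -0.15 to 0.046 in edgeR with TMM, to 0.067 in DESeq2 and to 0.070 in edgeR with DESeq2 size factors. Leaving out 1 cow turned the sign of 14 members, with ranges of -0.39 to 0.34 for CD79A, -0.12 to 0.39 for TYROBP, -0.81 to 0.19 for CD8B, -0.052 to 0.29 for NKG7, -0.73 to 0.35 for CSF1R, -0.64 to 0.045 for CD86, -0.65 to 0.19 for CD27, -2.21 to 0.26 for CPA3, -0.44 to 0.24 for CD14, -1.74 to 0.32 for CD163, -0.65 to 0.32 for CYBB, -0.13 to 0.21 for AIF1, -0.83 to 0.084 for CD8A and -0.83 to 0.043 for GZMA ENSBTAG00000021958. Without cow 489215, edgeR and DESeq2 gave -0.038 and -0.039 for NKG7, 0.27 and 0.26 for CSF1R and 0.33 and 0.33 for CYBB. Both kept the sign of the 6 cows where limma turned it, with -0.31 and -0.31 for CPA3, -0.17 and -0.17 for CD163, -0.073 and -0.074 for CD14 and -0.0074 and -0.0098 for CD86.

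The log2 ratios of the class sums ranged, with each cow left out, from -0.49 to 0.22 for T cells, -0.43 to 0.26 for B cells, -0.55 to -0.21 for cytotoxic cells, -0.39 to 0.16 for myeloid cells, 1.36 to 2.24 for mast cells and -0.36 to -0.07 for common genes. The mast cell value of 1.73 was -0.34 as a mean of log2 values and -0.96 without KIT. The causes of these shifts were not tested. Depth limits CD79B, MS4A1, the second GZMB row and CD4 and CPA3 in cow 489215, which rest on a few reads.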

Other observations

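Further immune genes outside the members are given here. The complement genes of macrophages were low in LF/LCL cow 617, as CD163 was. C1QA had 358.0, 1112.3 and 940.7 in LF/LCL and 1245.0, 609.8 and 911.5 in SF/SCL, and C1QB had 209.3, 623.2 and 440.0 against 1169.8, 456.7 and 673.0. Cow 489215 was above cow 617 for both genes but below it for CD163. IGJ, the joining chain of polymeric antibodies made by plasma cells, had 5552.5, 17086.6 and 12128.1 against 5400.6, 9829.5 and 8949.8, and MZB1, a chaperone of plasma cells, had 209.3, 403.6 and 326.7 against 262.8, 387.4 and 288.3. Cow 79 was the highest for both, and cow 856 the lowest SF/SCL cow for both. FOXP3, the transcription factor of regulatory T cells, had 23.0, 21.6 and 28.1 against 42.5, 25.3 and 22.8.

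The sum over the neutrophil list was 2954, 23311 and 2929 in LF/LCL and 3167, 704 and 4944 in SF/SCL. Cow 79 was the highest, and LTF, which encodes lactoferrin and is also made by epithelia, gave most of it with 23050.6. The sum over the erythrocyte list was 119, 25.3 and 85.2 against 38.0, 180 and 40.1, and was highest in cow 489215. Of the list for interstitial cells of Cajal limma called 0 of 4 genes with or without cow 489215. At an unadjusted p-value under 0.05 in limma there were 1 and 2 genes, all higher in LF/LCL. In either direction, 8.66% and 33.9% of all genes had such a p-value. With 6 cows the groups were apart for 2 of the 4 genes, higher in LF/LCL (8.6% of all genes).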
